A study of Mus musculus with 12 samples.

Results

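The p53 target genes described here are 32 genes, chosen by name from a list of genes known to be induced by p53, together with Trp53, the gene of p53 itself. The gene tables held 23955 genes, of which 14785 passed a filter on low counts and were tested, and all 32 members were among those tested. Each gene was measured in cultured neurons of 5 groups that each received a different lentiviral short hairpin RNA (shRNA), and each group was compared with both control hairpins.

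p53 is a transcription factor that is held at a low level by the ubiquitin ligase MDM2 and accumulates after DNA damage and other stress. It binds a pair of adjacent DNA half-sites and raises genes that halt the cell cycle, start apoptosis, repair DNA and restrain growth signalling, among them Mdm2, which closes a negative feedback loop. In neurons, which no longer divide, the p53 pathway is best known for the apoptosis that follows DNA damage or loss of trophic support.

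The cells were cortical neurons of C57BL/6J mice, taken at E16.5 (embryonic days), infected the day after seeding with lentivirus that carried an shRNA in the pGreenPuro vector, and harvested 7 days after dissection. The hairpins were shAdar1 against Adar (which encodes the RNA editing enzyme ADAR1), shAdar2 against Adarb1 (which encodes the editing enzyme ADAR2), shZfr against Zfr (which encodes a zinc finger RNA-binding protein), and the controls shControl2 and shControl1. Every group was therefore infected and carried a hairpin, the controls included, and no uninfected cells are among the samples analysed here. RNA was freed of ribosomal RNA before sequencing, and each group had 2 biological replicates, so that 10 samples were compared. Each target was lowered with 1 hairpin, so that effects of a hairpin and of the loss of its target cannot be told apart. The study's design text sets shAdar1 and shAdar2 against shControl1, and shZfr against shControl2.

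Sequences resembling the p53 binding site were looked for in the members' promoters, because p53 binding is what the list was chosen for. The motif was the consensus of 2 abutting half-sites, 20 bases long, with CNNG at the core of each half-site. The C and G of both cores were required, and at most 3 mismatches were allowed at the other positions, the middle bases of a core included, on both strands. RefSeq promoters (GRCm38.p6, from 250 bases before to 50 bases after a gene's start) were at hand for 25 of the 32 members, as 34 promoters. A match was present in 9 of these 34 promoters (26.5%), belonging to 8 members, and in 453 of all 32851 promoters (1.38%). The mismatch limit was chosen after the matches had been seen. With at most 1 mismatch a match was present for 3 of the 25 members, counted as genes. Counted as promoters, 22 of all promoters (0.067%), those of the members included, had such a match. A match is a description of the letters and not a measured binding site. The 8 sequences are shown because the members that carry them did not share 1 pattern across the groups, as the values further on show. Capitals mark the core of each half-site. The first 3 sequences have 1 mismatch, that of Ckap2 has 2 and the last 4 have 3, and 1 mismatch of Ccng1 and 1 of Sesn1 lie at a middle base of a core.
Cdkn1a, chr17:29090928-29090947, plus strand: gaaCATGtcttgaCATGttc
Ccng1, chr11:40755462-40755481, minus strand: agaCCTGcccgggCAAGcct
Gtse1, chr15:85859945-85859964, plus strand: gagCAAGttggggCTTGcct
Ckap2, chr8:22186003-22186022, minus strand: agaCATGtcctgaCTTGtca
Bbc3, chr7:16309486-16309505, plus strand: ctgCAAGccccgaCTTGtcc
Aen, chr7:78895937-78895956, plus strand: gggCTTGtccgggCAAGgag
Sesn1, chr10:41887266-41887285, plus strand: aagCTTGtttttgCTGGcct
Trp53, chr11:69580284-69580303, plus strand: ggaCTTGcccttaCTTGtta

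The 10 samples held 15818942 to 29671849 counts, except shAdar2 replicate 1 with 82653835, which is the sum of 3 technical libraries of the same RNA. Each hairpin lowered its target: 30.9% of Adar was left in shAdar1 (log2 fold change -1.69 ± 0.13 SE against shControl1, edgeR's quasi-likelihood test, adjusted p = 0.000341), 41.7% of Adarb1 in shAdar2 (-1.26 ± 0.12 against shControl1, adjusted p = 7.12e-05) and 37.6% of Zfr in shZfr (-1.41 ± 0.11 against shControl2, adjusted p = 6.36e-05). Zfr differed between the controls (0.72 ± 0.11, adjusted p = 0.000886), so that 61.9% of it was left in shZfr against shControl1. The targets were not lowered in their own group alone: in shZfr 49.5% of Adarb1 was left against shControl2 (-1.01 ± 0.12, adjusted p = 0.000381), and in shAdar2 67.5% of Zfr was left against shControl1 (-0.57 ± 0.11, adjusted p = 0.00292). Adarb1 stood at 48.4 and 52.0 CPM in shAdar2 and 49.2 and 45.5 in shZfr, and Zfr at 179 and 197 CPM in shAdar2 and 173 and 173 in shZfr. The 2 shZfr samples differed by little more than sampling noise (9.75% of genes past an unadjusted p of 0.05, where noise alone gives 5%, against 44.8 to 73.7% in the other groups). Technical libraries of shAdar2 replicate 1 differed from each other at 61.1 to 69.1% of genes, so that this share does not tell technical from biological replicates in these data. Cell type markers also differed between groups: 12 neuron markers summed to 8915 and 7801 CPM in shAdar1, 4127 and 4263 in shAdar2, 11379 and 11619 in shZfr, 9666 and 10360 in shControl2, and 7509 and 6844 in shControl1. Single neuron markers did not all follow that sum: in shAdar2 against shControl1 5 of the 12 fell, Map2, Snap25, Stmn2, Dcx and Neurod6, and 4 rose, the transmitter genes Slc17a7, Slc17a6, Gad1 and Gad2. Against shControl2 7 of the 12 fell and 3 rose. There Slc17a7 and Gad1 rose, Slc17a6 fell (-1.14 ± 0.18) and Gad2 was not called (0.20 ± 0.24). The shares of all genes called, given below with the genes of cell cycle arrest, apply to all marker counts here. The neuronal genes Map2 and Tubb3 were present in every sample (at least 688 and 399 CPM). The 9 astrocyte markers summed to 1201 and 1735 CPM in shAdar1, 606 and 934 in shAdar2, and 914 and 866 in shZfr. In the controls they summed to 2120 and 2571 CPM in shControl2 and 1002 and 681 in shControl1. Single astrocyte markers did not all follow that sum. Against shControl2, 2 of the 9 fell in shAdar1, 6 in shAdar2 and 5 in shZfr, while Gfap rose in shAdar2 and shZfr. Against shControl1, 4 rose in shAdar1, 1, Gfap, rose in shAdar2, and 3 rose and 1 fell in shZfr. The 7 oligodendrocyte lineage markers summed to 142 and 407 CPM in shAdar1, 89.1 and 319 in shAdar2, and 300.3 and 260 in shZfr. In the controls these 7 summed to 440 and 439 CPM in shControl2, and 120 and 76.4 in shControl1. The 4 microglial markers summed to at most 3.28 CPM in any sample. In such bulk samples fewer cells of a type and less RNA per cell cannot be told apart, and the part of cell composition in the results on p53 target genes was not tested.

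Levels are given as CPM, which are TMM-normalised counts put on the same total in every sample, and differences as log2 fold changes with their standard error from 1 fit of all 10 samples. A gene is called where the Benjamini-Hochberg adjusted p over all 14785 genes is under 0.05. Every value below rests on 2 samples a group. For fits that leave out a sample or sum the 2 shZfr samples, the share of all genes called was not computed. A lower count of members in such a fit therefore cannot be told from fewer calls over all genes.

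In shAdar1 neurons 17 of the 32 genes fell and none rose against shControl1, while 6.9% of all genes tested were called lower and 9.33% higher (16.2% in all). The median log2 fold change of the members was -0.87, beside 0.02 over all genes. With each of the 4 samples left out in turn 11 to 13 members were called lower, the fewest without shControl1 replicate 2, and 11 genes kept their call in every such fit. Of the 32 log2 fold changes 25 were below 0. At an unadjusted p under 0.05 2 members were higher, and DESeq2 called 1 higher. Against shControl2 the same shAdar1 samples gave a different picture, with 4 members higher and 4 lower (33.2% of all genes called, 19.3% higher and 13.9% lower) and a median of 0.14, beside 0.03 over all genes. The 4 higher calls numbered 2 without shControl2 replicate 1 and 1 without shControl2 replicate 2 or shAdar1 replicate 2. With the 4 samples of both controls pooled into 1 group, none of the members was called in shAdar1 by edgeR (0.0338% of all genes were called, and 5 members were lower at an unadjusted p under 0.05).

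In shAdar2 neurons 7 members rose and 8 fell against shControl1, with a median of 0.14 beside 0.04 over all genes. As 46.4% of all genes were called in that comparison (23.2% in each direction), the 46.9% of members called is near the background. Leaving out shControl1 replicate 1 left 4 higher and 5 lower calls, shControl1 replicate 2 left 4 lower calls, and shAdar2 replicate 1 left 5 lower calls. Against shControl2, 21 members rose and 5 fell, with a median of 0.82 beside 0.09 over all genes, where 32.2% of all genes were called higher and 27.3% lower (59.5% in all). With both controls pooled 5 members were called higher and 4 lower in shAdar2 (32.5% of all genes called).

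In shZfr neurons 21 members rose and 1, Rrm2b, fell against shControl2, the control the study set beside them. In that comparison 30.7% of all genes were called (16.7% higher, 14.1% lower), and the members' median was 0.75 beside 0.05 over all genes. Fewer members were called higher with any 1 of the 4 samples left out, in fits for which the share of all genes called was not computed. With the 2 shZfr samples summed to 1 sample, 13 were called higher, and with both controls pooled 5 were (12.8% of all genes called). Against shControl1, 6 members rose and 7 fell, with a median of -0.21 beside -0.03 over all genes (46.2% of all genes called, 22.8% higher and 23.4% lower). The lower calls numbered 4 without shControl1 replicate 2 or shZfr replicate 1, 3 without shZfr replicate 2, and 4 with the shZfr samples summed.

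The 2 control hairpins differed from each other on these genes. In shControl2 neurons 18 members were lower and 1, Rrm2b, higher than in shControl1 neurons, with a median of -0.86 beside -0.05 over all genes, where 23.2% of all genes were called lower and 19.9% higher (43.1% in all). Without shControl1 replicate 2 the higher calls were 2. The lowest group mean lay in shControl2 for 18 of the 32 genes (23.8% of all genes tested) and in shAdar1 for 6 (8.41%), and the highest lay in shAdar2 for 16 (32.7%) and in shZfr for 8 (23.6%). A total of 24 members were called in both directions among the 7 comparisons with a control, which is 75% of the members, beside 43% of all genes tested. These comparisons share control samples, so that their calls are not independent of each other.

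**Figure D1:**
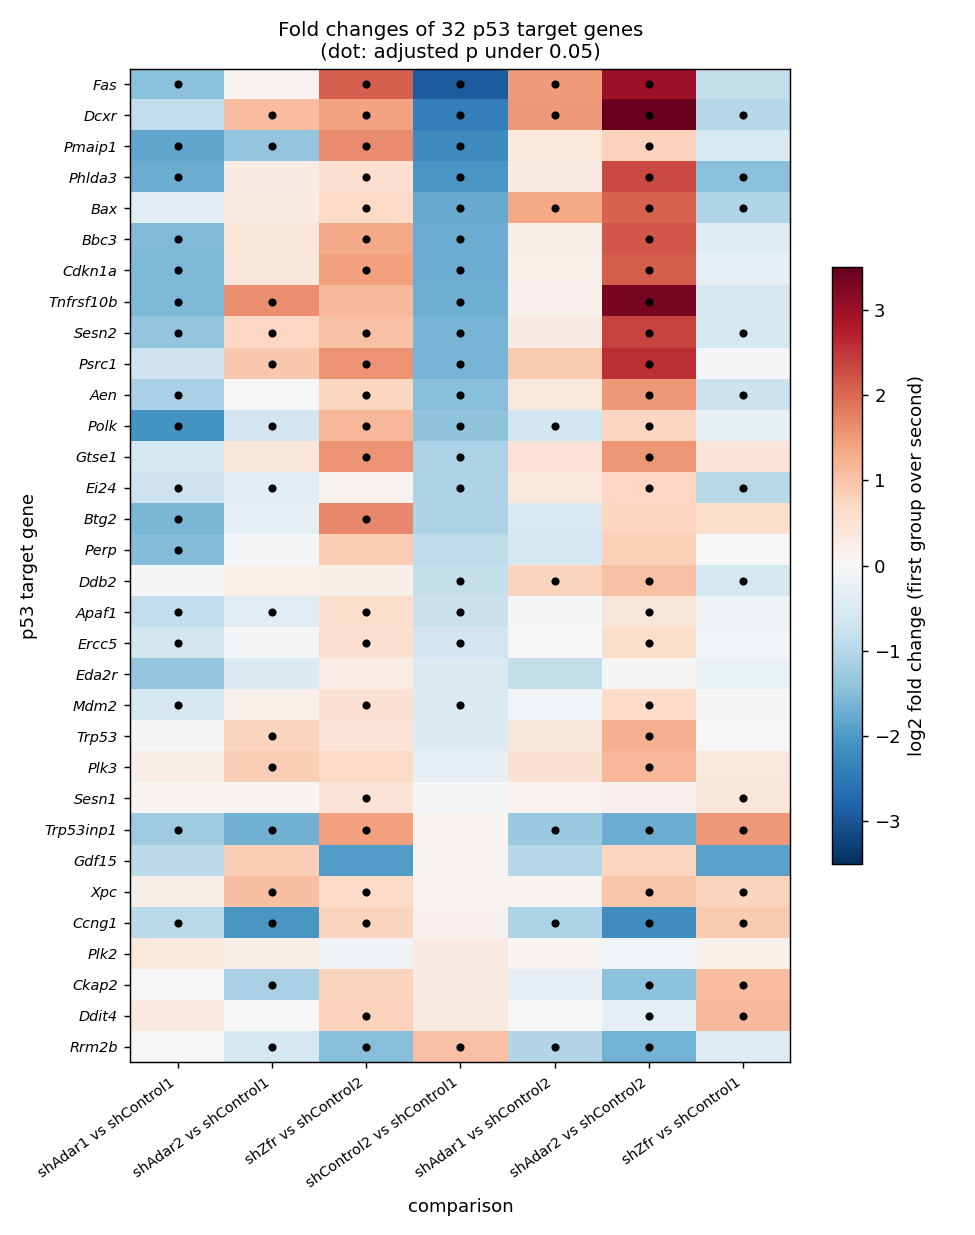
Log2 fold changes (colour) of the 32 p53 target genes (rows, ordered by their change in shControl2 vs shControl1) in the 7 comparisons with a control hairpin (columns). A black dot marks an adjusted p under 0.05. The shControl2 vs shControl1 column has 18 lower and 1 higher call, the shAdar1 vs shControl1 column 17 lower calls, and the shAdar2 vs shControl2 and shZfr vs shControl2 columns have 21 higher calls each.

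Trp53, which encodes p53, stood at 12.2 and 17.2 CPM in shAdar1, 24.9 and 28.0 in shAdar2, 16.46 and 14.7 in shZfr, 11.7 and 10.5 in shControl2, and 15.2 and 15.8 in shControl1. Both shAdar2 samples lay above every other sample, and the shZfr samples overlapped those of shControl1. Trp53 rose in shAdar2 against shControl1 (0.77 ± 0.18, adjusted p = 0.00646) and against shControl2 (1.24 ± 0.18, adjusted p = 0.000324). It was not called in shAdar1 against either control (-0.07 ± 0.18 against shControl1 and 0.40 ± 0.18 against shControl2), nor in shZfr (0.48 ± 0.18 against shControl2 and 0.01 ± 0.18 against shControl1). Between the controls its difference was -0.48 ± 0.18 (adjusted p = 0.0576).

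Mdm2, the ubiquitin ligase that p53 induces and that degrades p53, stood at 45.4 and 41.3 CPM in shAdar1, 60.4 and 86.5 in shAdar2, 66.5 and 67.4 in shZfr, 45.5 and 46.8 in shControl2, and 60.5 and 68.5 in shControl1. The shAdar1 samples lay below those of all other groups by a narrow margin over shControl2, and the shAdar2, shZfr and shControl1 samples overlapped. Mdm2 rose in shAdar2 against shControl2 (0.67 ± 0.16, adjusted p = 0.00511), a call that held with any 1 sample left out. The other calls were lower in shAdar1 against shControl1 (-0.57 ± 0.16, adjusted p = 0.0377), higher in shZfr against shControl2 (0.54 ± 0.16, adjusted p = 0.0295) and lower in shControl2 against shControl1 (-0.48 ± 0.16, adjusted p = 0.0328). The shAdar1 call was lost without any 1 of the 4 samples (-0.48 to -0.66), the shZfr call without any 1 of the 4 samples (0.51 to 0.55), and the call between the controls without any 1 of the 4 samples (-0.39 to -0.57).

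**Figure D2:**
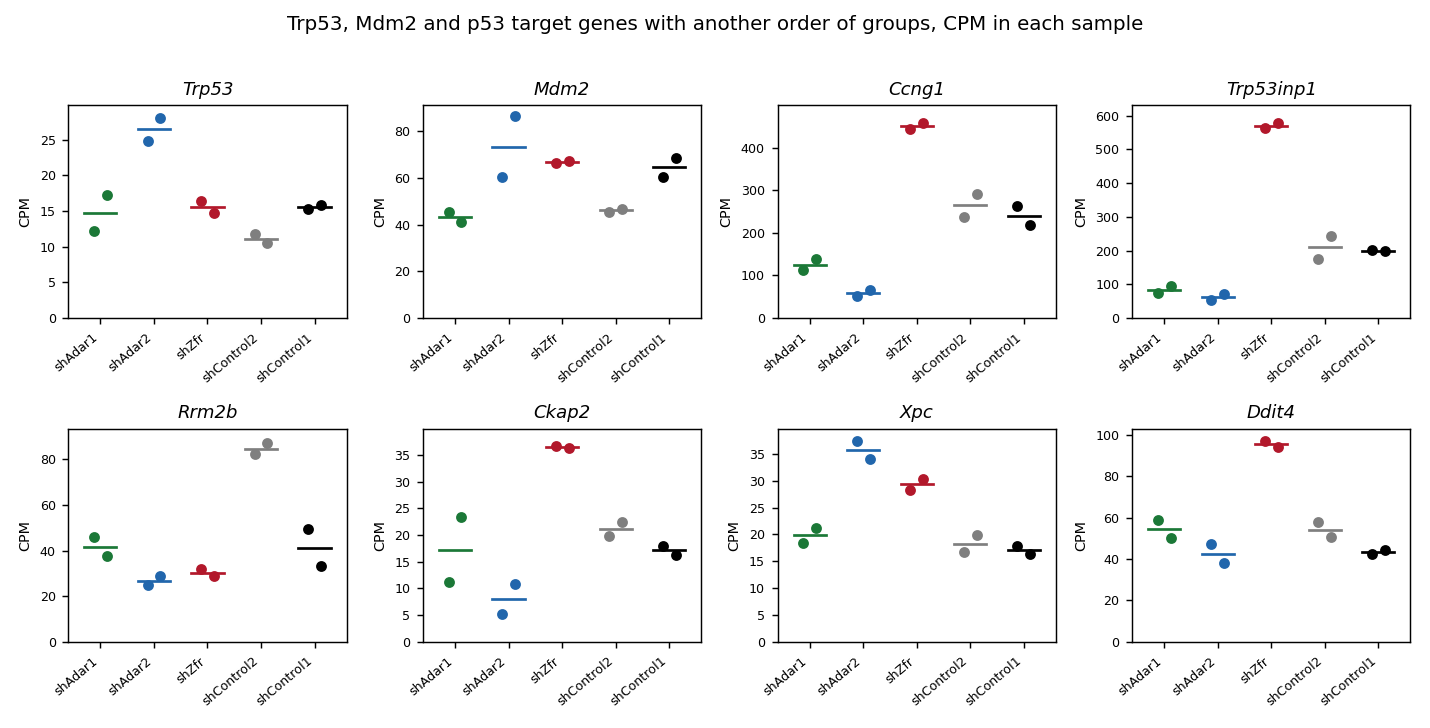
Levels of Trp53, Mdm2 and 6 target genes in CPM (vertical axis, from 0) in each of the 10 samples (points), with the mean of each group as a line. Ccng1 and Trp53inp1 lie highest in shZfr and lowest in shAdar2, Rrm2b is highest in shControl2, and Xpc is higher in shAdar2 and shZfr than in shAdar1 and both controls.

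Among the 8 genes of cell cycle arrest and growth inhibition, 3 fell in shAdar1 and 2 rose and 2 fell in shAdar2, both against shControl1, while 5 rose in shZfr against shControl2. Against the other control 1 fell in shAdar1, 4 rose and 2 fell in shAdar2, and 2 rose in shZfr. In shControl2 3 were lower than in shControl1. Counts for this and the other roles stand beside the shares of all genes called higher and lower. Against shControl1 these were 9.33% and 6.9% in shAdar1, 23.2% and 23.2% in shAdar2, 22.8% and 23.4% in shZfr, and 19.9% and 23.2% in shControl2. Against shControl2 they were 19.3% and 13.9% in shAdar1, 32.2% and 27.3% in shAdar2, and 16.7% and 14.1% in shZfr. A role count near these shares is not a result about that role. Cdkn1a, the cyclin-dependent kinase inhibitor p21, stood at 34.4 and 27.9 CPM in shAdar1, 127 and 113 in shAdar2, 75.1 and 74.7 in shZfr, 30.7 and 24.5 in shControl2, and 81.7 and 102 in shControl1. The shAdar2 samples were the highest, the shAdar1 and shControl2 samples overlapped at the low end, and both shZfr samples lay just below those of shControl1. Cdkn1a fell in shAdar1 against shControl1 (-1.56 ± 0.16, adjusted p = 0.00072) and rose in shZfr against shControl2 (1.44 ± 0.16, adjusted p = 0.000278). It rose in shAdar2 by 4.35-fold against shControl2 (2.12 ± 0.16, adjusted p = 1.15e-05), while against shControl1 the difference was not called (0.38 ± 0.15, adjusted p = 0.0663). In shControl2 it was lower than in shControl1 (-1.74 ± 0.16, adjusted p = 7.32e-05).

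Ccng1 encodes cyclin G1, which recruits a phosphatase to MDM2. It stood at 112 and 139 CPM in shAdar1, 50.7 and 66.1 in shAdar2, 443 and 458 in shZfr, 238 and 292 in shControl2, and 263 and 218 in shControl1. The 2 controls overlapped, both shZfr samples lay above them, and the shAdar1 samples and then the shAdar2 samples lay below them. Ccng1 fell in shAdar2 to 0.242 of its shControl1 level (-2.05 ± 0.17, adjusted p = 3.93e-05), and it fell against shControl2 as well (-2.19 ± 0.17, adjusted p = 1.27e-05). It fell in shAdar1 against shControl1 (-0.94 ± 0.17, adjusted p = 0.00669) and shControl2 (-1.08 ± 0.17, adjusted p = 0.00154). It rose in shZfr against shControl1 (0.91 ± 0.17, adjusted p = 0.00181) and shControl2 (0.77 ± 0.17, adjusted p = 0.00734), and the call against shControl2 was lost without shControl2 replicate 1 (0.62) or shZfr replicate 2 (0.73). The controls differed from each other by 0.14 ± 0.16, which was not called. Ccng1 and Cdkn1a both have a site with 1 mismatch in the window shown above, and in shAdar2 against shControl2 they were called in opposite directions.

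Btg2, an antiproliferative gene that is also induced as an immediate early gene, stood at 10.2 and 18.4 CPM in shAdar1, 41.8 and 27.0 in shAdar2, 67.3 and 65.4 in shZfr, 16.8 and 24.4 in shControl2, and 23.5 and 63.2 in shControl1. The shControl1 samples were far apart, and only the shZfr samples lay above both of them. Btg2 fell in shAdar1 against shControl1 (-1.60 ± 0.44, adjusted p = 0.0378), a call lost without shControl1 replicate 2 (-0.72) or shAdar1 replicate 1 (-1.26) or shAdar1 replicate 2 (-2.09). It rose in shZfr against shControl2 (1.68 ± 0.44, adjusted p = 0.0176), a call lost without any 1 of the 4 samples (1.43 to 1.97). The summed level of 15 immediate early genes split the shControl1 samples in the same way, with 231 and 1087 CPM, and was 304 and 213 in shAdar1, 1069 and 307 in shAdar2, 190 and 189 in shZfr, and 265 and 249 in shControl2. Its part in the values of Btg2 was not tested.

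Gtse1, Psrc1 and Ckap2 encode proteins of the mitotic spindle and microtubules that are expressed in dividing cells. Gtse1 stood at 3.78 and 8.55 CPM in shAdar1, 11.7 and 13.7 in shAdar2, 13.004 and 12.8 in shZfr, 4.91 and 3.84 in shControl2, and 8.30 and 10.6 in shControl1. The shAdar2 and shZfr samples lay above all others. Gtse1 rose in shZfr (1.56 ± 0.34, adjusted p = 0.00743) and shAdar2 (1.54 ± 0.33, adjusted p = 0.00317) against shControl2, and was lower in shControl2 than in shControl1 (-1.11 ± 0.33, adjusted p = 0.0231). The shZfr call was lost without shControl2 replicate 2 (1.39), and the call between the controls without shControl1 replicate 2 (-0.93) or shControl2 replicate 1 (-1.28) or shControl2 replicate 2 (-0.93).

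Psrc1 stood at 3.46 and 6.86 CPM in shAdar1, 14.2 and 19.0 in shAdar2, 8.46 and 8.14 in shZfr, 2.43 and 3.10 in shControl2, and 6.84 and 10.2 in shControl1. Both shAdar2 samples lay above every other sample. Psrc1 rose in shAdar2 against shControl2 (2.57 ± 0.35, adjusted p = 0.000206) and shControl1 (0.95 ± 0.32, adjusted p = 0.0329), and in shZfr against shControl2 (1.58 ± 0.35, adjusted p = 0.00784). In shControl2 it was lower than in shControl1 (-1.62 ± 0.34, adjusted p = 0.00436). The shAdar2 call against shControl1 was lost without shControl1 replicate 1 (0.69) or shAdar2 replicate 2 (0.73) and the shZfr call without shControl2 replicate 1 (1.41).

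Ckap2 stood at 11.3 and 23.3 CPM in shAdar1, 5.27 and 10.9 in shAdar2, 36.7 and 36.3 in shZfr, 19.8 and 22.4 in shControl2, and 18.0 and 16.3 in shControl1. The shZfr samples were the highest and the shAdar2 samples the lowest, and the 2 shAdar1 samples differed from each other more than the controls did. Ckap2 fell in shAdar2 against shControl2 (-1.43 ± 0.37, adjusted p = 0.00768) and shControl1 (-1.13 ± 0.37, adjusted p = 0.0299), the second call being lost without shControl1 replicate 1 (-1.07) or shControl1 replicate 2 (-1.21) or shAdar2 replicate 1 (-0.66). It rose in shZfr against shControl1 (1.09 ± 0.36, adjusted p = 0.0309), a call lost without any 1 of the 4 samples (1.02 to 1.16). The 14 markers of proliferating progenitors summed to 243 and 606 CPM in shAdar1, 51.1 and 126 in shAdar2, and 880.0 and 813 in shZfr. They summed to 536 and 563 CPM in shControl2, and 192 and 167 in shControl1. In shAdar2 against shControl2 12 of the 14 fell and 0 rose (median -2.06). There Ckap2 fell as well, while Gtse1 (1.54 ± 0.33) and Psrc1 (2.57 ± 0.35) rose. The part of the progenitor markers in the levels of the mitotic members was not tested.

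The last 2 genes of this role are the polo-like kinases Plk2 and Plk3. Plk2 lay between 139.5 CPM in shControl1 replicate 1 and 213 CPM in shAdar1 replicate 2 and was called in none of the 10 comparisons. Plk3 was highest in shAdar2, at 22.9 and 16.9 CPM, against 9.78 and 8.04 CPM in shControl2 and 8.07 and 13.7 CPM in shControl1. It rose in shAdar2 against shControl2 (1.17 ± 0.27, adjusted p = 0.00464) and shControl1 (0.87 ± 0.27, adjusted p = 0.0236). The call against shControl2 was lost without shControl2 replicate 2 (1.01) and that against shControl1 without shControl1 replicate 1 (0.54) or shAdar2 replicate 1 (0.62).

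Of the 12 apoptosis genes 10 fell in shAdar1 against shControl1, with a median of -1.39, while against shControl2 2 rose and 1 fell, with a median of 0.26. In shZfr 8 rose against shControl2, with a median of 0.82, while against shControl1 1 rose and 4 fell, with a median of -0.56. In shAdar2 1 rose and 4 fell against shControl1, and 9 rose and 1 fell against shControl2. Between the controls, 9 were lower in shControl2.

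Bbc3 encodes PUMA, a BH3-only protein that binds the anti-apoptotic BCL2 family. Its level was 8.97 and 9.55 CPM in shAdar1, 42.5 and 30.0 in shAdar2, 22.0 and 18.3 in shZfr, 8.30 and 7.76 in shControl2, and 24.7 and 29.1 in shControl1. The shAdar1 samples lay just above those of shControl2 and below all others, and both shAdar2 samples lay above every other sample. Bbc3 fell in shAdar1 against shControl1 (-1.54 ± 0.19, adjusted p = 0.00146) and rose in shZfr against shControl2 (1.33 ± 0.19, adjusted p = 0.00106). It rose in shAdar2 against shControl2 (2.18 ± 0.20, adjusted p = 2.36e-05) but was not called against shControl1 (0.43 ± 0.18, adjusted p = 0.0767). Its shControl2 level was below that of shControl1 (-1.74 ± 0.19, adjusted p = 0.000163).

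Pmaip1 encodes NOXA, another BH3-only protein. Its level was 16.9 and 14.6 CPM in shAdar1, 27.1 and 15.2 in shAdar2, 38.1 and 38.5 in shZfr, 11.6 and 12.6 in shControl2, and 52.9 and 58.4 in shControl1. The shControl1 samples were the highest, followed by those of shZfr, and the shAdar1 and shAdar2 samples overlapped. Pmaip1 fell in shAdar1 (-1.82 ± 0.23, adjusted p = 0.00157) and in shAdar2 (-1.38 ± 0.23, adjusted p = 0.00112) against shControl1. It rose in shZfr against shControl2 (1.66 ± 0.23, adjusted p = 0.000886). It also rose in shAdar2 against shControl2 (0.82 ± 0.23, adjusted p = 0.0122), a call lost without shControl2 replicate 1 (0.74) or shControl2 replicate 2 (0.86) or shAdar2 replicate 1 (0.32). Between the controls it was lower in shControl2 (-2.20 ± 0.24, adjusted p = 0.000139).

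Bax, whose protein permeabilises the outer mitochondrial membrane, stood at 25.7 and 28.8 CPM in shAdar1, 49.0 and 40.7 in shAdar2, 18.6 and 16.1 in shZfr, 11.5 and 9.91 in shControl2, and 33.7 and 38.5 in shControl1. No 2 groups overlapped, and they ran from shAdar2 through shControl1, shAdar1 and shZfr to shControl2. Bax rose in shAdar1 (1.35 ± 0.16, adjusted p = 0.000462), shAdar2 (2.07 ± 0.16, adjusted p = 1.15e-05) and shZfr (0.69 ± 0.16, adjusted p = 0.00975) against shControl2, and the shZfr call was lost without shControl2 replicate 2 (0.59) or shZfr replicate 1 (0.59). Against shControl1 it fell in shZfr (-1.06 ± 0.15, adjusted p = 0.000524) and was not called in shAdar1 (-0.41 ± 0.15) or shAdar2 (0.32 ± 0.15). The shControl2 samples had less of it than those of shControl1 (-1.75 ± 0.16, adjusted p = 6.55e-05).

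Apaf1, the scaffold of the apoptosome, stood at 74.0 and 70.6 CPM in shAdar1, 109 and 96.6 in shAdar2, 117 and 118 in shZfr, 76.4 and 76.4 in shControl2, and 121 and 143 in shControl1. The shAdar1 and shControl2 samples lay below all others, without overlap between them. Apaf1 fell in shAdar1 against shControl1 (-0.87 ± 0.11, adjusted p = 0.00146) and rose in shZfr against shControl2 (0.62 ± 0.11, adjusted p = 0.00267). In shAdar2 it fell against shControl1 (-0.36 ± 0.11, adjusted p = 0.0208), a call lost without shControl1 replicate 2 (-0.24) or shAdar2 replicate 2 (-0.29), and rose against shControl2 (0.43 ± 0.11, adjusted p = 0.00707), a call lost without shControl2 replicate 1 (0.40) or shControl2 replicate 2 (0.41). In shControl2 it was lower than in shControl1 (-0.79 ± 0.11, adjusted p = 0.000456). Apaf1 overlaps the gene Ikbip, and the sources used here do not say whether reads were counted by strand.

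**Figure D3:**
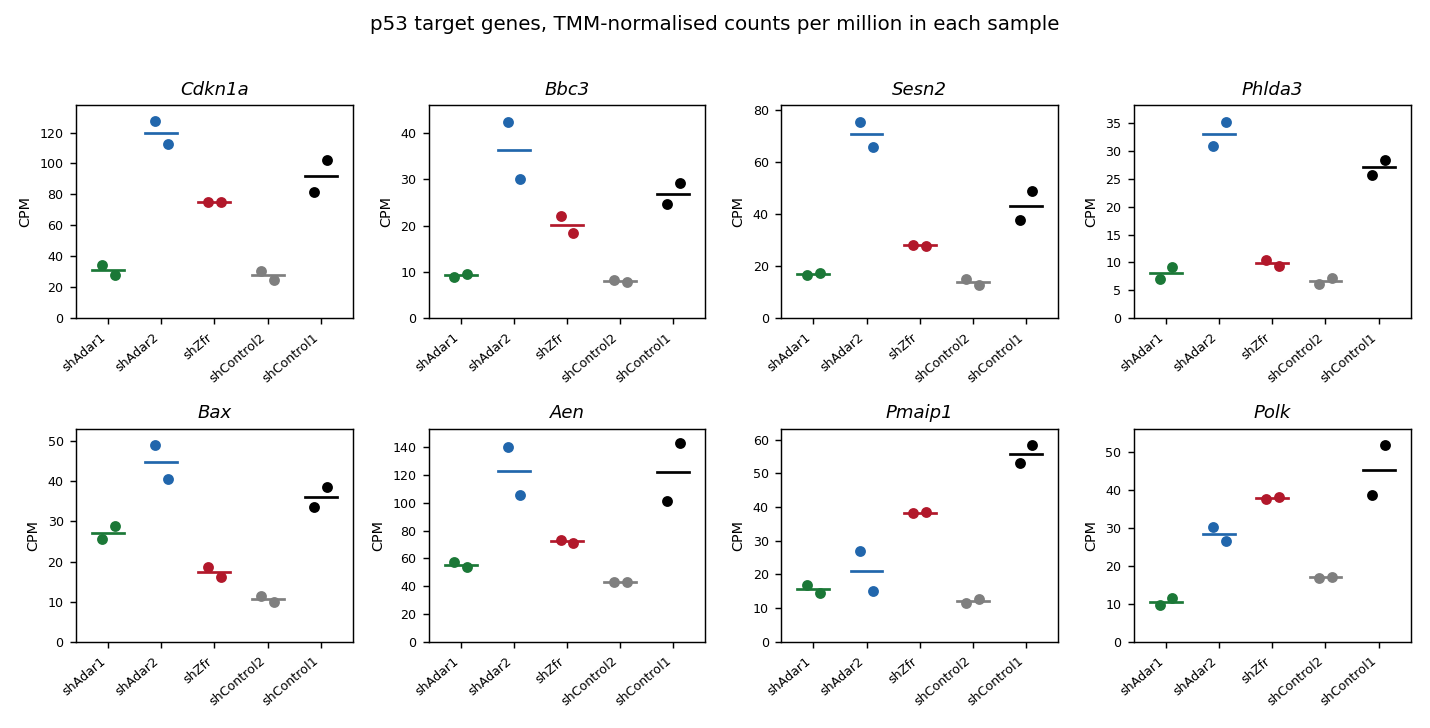
Levels in CPM (vertical axis, from 0) of 8 p53 target genes in each of the 10 samples (points), with the mean of each group as a line. In Cdkn1a, Bbc3, Sesn2, Phlda3 and Aen the shAdar1 and shControl2 samples are the low ones and the shAdar2 and shControl1 samples the high ones, while Pmaip1 and Polk are lower in shAdar2 than in shControl1.

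Phlda3 encodes a pleckstrin homology domain protein that inhibits the kinase AKT. Its level was 7.06 and 9.25 CPM in shAdar1, 31.0 and 35.3 in shAdar2, 10.4 and 9.45 in shZfr, 6.06 and 7.17 in shControl2, and 25.8 and 28.4 in shControl1. The shAdar2 and shControl1 samples lay far above the others. Phlda3 fell in shAdar1 (-1.73 ± 0.17, adjusted p = 0.00069) and in shZfr (-1.45 ± 0.17, adjusted p = 0.000177) against shControl1. It rose in shAdar2 (2.32 ± 0.18, adjusted p = 1.15e-05) and in shZfr (0.58 ± 0.18, adjusted p = 0.0352) against shControl2, and the shZfr call against shControl2 was lost without any 1 of the 4 samples (0.46 to 0.70). Its shControl2 level was below that of shControl1 (-2.03 ± 0.18, adjusted p = 5.69e-05).

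Aen, a nuclease that p53 induces during apoptosis, stood at 57.4 and 53.6 CPM in shAdar1, 140.2 and 105 in shAdar2, 73.0 and 71.3 in shZfr, 43.3 and 43.1 in shControl2, and 101 and 143 in shControl1. The shAdar2 and shControl1 samples overlapped at the high end, and the shControl2 samples were the lowest. Aen fell in shAdar1 (-1.14 ± 0.17, adjusted p = 0.00355) and in shZfr (-0.76 ± 0.17, adjusted p = 0.00599) against shControl1, the shZfr call being lost without shControl1 replicate 2 (-0.48) or shZfr replicate 2 (-0.73). It rose in shAdar2 (1.51 ± 0.18, adjusted p = 9.43e-05) and in shZfr (0.74 ± 0.18, adjusted p = 0.0116) against shControl2, the shZfr call being lost without any 1 of the 4 samples (0.72 to 0.74). Between the controls it was lower in shControl2 (-1.50 ± 0.18, adjusted p = 0.00021).

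Trp53inp1 encodes a stress protein that promotes p53 phosphorylation and autophagy. Its level was 75.0 and 94.1 CPM in shAdar1, 53.5 and 72.0 in shAdar2, 562 and 578 in shZfr, 174 and 244 in shControl2, and 202 and 197 in shControl1. As with Ccng1, the controls overlapped, the shZfr samples were the highest and the shAdar2 samples the lowest. Trp53inp1 rose in shZfr by 2.72-fold against shControl2 (1.44 ± 0.19, adjusted p = 0.000574) and by 2.85-fold against shControl1 (1.51 ± 0.19, adjusted p = 0.000211). It fell in shAdar1 against shControl1 (-1.24 ± 0.19, adjusted p = 0.0034) and shControl2 (-1.31 ± 0.19, adjusted p = 0.00105). It fell in shAdar2 against shControl1 (-1.68 ± 0.19, adjusted p = 0.000164) and shControl2 (-1.74 ± 0.19, adjusted p = 6.45e-05). All 6 of these calls held when any 1 sample was left out, and the controls differed by only 0.07 ± 0.18 (adjusted p = 0.795).

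Ei24, an endoplasmic reticulum protein of autophagy and apoptosis, stood at 108 and 122 CPM in shAdar1, 126 and 168 in shAdar2, 95.4 and 99.7 in shZfr, 86.9 and 91.7 in shControl2, and 195 and 185 in shControl1. The shControl1 samples lay above all others and those of shControl2 below. Ei24 fell in shAdar1 (-0.72 ± 0.13, adjusted p = 0.00801), shAdar2 (-0.37 ± 0.13, adjusted p = 0.0434) and shZfr (-0.96 ± 0.14, adjusted p = 0.000423) against shControl1, and the shAdar2 call was lost without shControl1 replicate 1 (-0.34) or shControl1 replicate 2 (-0.42) or shAdar2 replicate 1 (-0.19). It rose in shAdar2 against shControl2 (0.72 ± 0.13, adjusted p = 0.0014) and was lower in shControl2 than in shControl1 (-1.09 ± 0.14, adjusted p = 0.000266).

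Fas and Tnfrsf10b encode death receptors of the tumour necrosis factor receptor family. Fas stood at 1.00 and 1.22 CPM in shAdar1, 2.49 and 4.04 in shAdar2, 1.61 and 1.76 in shZfr, 0.286 and 0.502 in shControl2, and 3.42 and 2.58 in shControl1. Its shControl2 samples were the lowest, and those of shAdar2 and shControl1 overlapped. Fas rose in shAdar2 (3.01 ± 0.43, adjusted p = 0.00029), shZfr (2.08 ± 0.44, adjusted p = 0.00695) and shAdar1 (1.48 ± 0.45, adjusted p = 0.0298) against shControl2, and fell in shAdar1 against shControl1 (-1.42 ± 0.38, adjusted p = 0.033). The shZfr call was lost without shControl2 replicate 1 (1.73), and the shAdar1 calls were lost without any 1 of the 4 samples (1.1 to 1.91) against shControl2 and without any 1 of the 4 samples (-1.21 to -1.62) against shControl1. Fas was lower in shControl2 than in shControl1 (-2.91 ± 0.43, adjusted p = 0.000666).

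Tnfrsf10b stood at 2.41 and 3.32 CPM in shAdar1, 15.2 and 37.8 in shAdar2, 5.87 and 5.53 in shZfr, 2.62 and 2.60 in shControl2, and 8.22 and 8.82 in shControl1. Both shAdar2 samples lay above all others, although they differed widely from each other. Tnfrsf10b rose in shAdar2 by 10.0-fold against shControl2 (3.33 ± 0.40, adjusted p = 0.000102) and by 3.08-fold against shControl1 (1.62 ± 0.36, adjusted p = 0.00505), and both calls held with any 1 sample left out. Without shAdar2 replicate 2 the difference from shControl1 was 0.83. It fell in shAdar1 against shControl1 (-1.56 ± 0.38, adjusted p = 0.0232), a call lost without any 1 of the 4 samples (-1.38 to -1.82), and was lower in shControl2 than in shControl1 (-1.70 ± 0.39, adjusted p = 0.00616), a call lost without shControl2 replicate 2 (-1.68). The 9 interferon-stimulated genes tested moved with the shAdar2 samples, summing to 113 and 359 CPM in shAdar2 against 8.79 to 17.2 CPM in all other samples, with all 9 higher against each control. Their part in the shAdar2 results was not tested.

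The remaining apoptosis genes are Perp, a membrane protein of desmosomes, and Eda2r, a receptor for ectodysplasin. Perp lay between 1.95 and 9.93 CPM and was called against a control only as lower in shAdar1 against shControl1 (-1.51 ± 0.36, adjusted p = 0.0228), a call lost without shControl1 replicate 1 (-1.59) or shControl1 replicate 2 (-1.42) or shAdar1 replicate 2 (-1.17). Eda2r lay between 13.9 and 51.9 CPM, with 16.7 and 51.9 CPM in the 2 shAdar2 samples, and was called in none of the 10 comparisons.

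Of the 5 genes of DNA repair and nucleotide supply, 2 fell in shAdar1 against shControl1, 1 rose and 2 fell in shAdar2 against shControl1, and 3 rose and 1 fell in shZfr against shControl2. Set against the other control, 1 rose and 2 fell in shAdar1, 4 rose and 1 fell in shAdar2, and 1 rose and 1 fell in shZfr. In shControl2 1 was higher and 3 were lower than in shControl1. Rrm2b, the p53-inducible small subunit of ribonucleotide reductase, stood at 45.9 and 37.6 CPM in shAdar1, 24.8 and 29.0 in shAdar2, 31.8 and 28.8 in shZfr, 82.2 and 86.9 in shControl2, and 49.5 and 33.2 in shControl1. Both shControl2 samples lay above every other sample. Rrm2b fell against shControl2 in shAdar1 (-1.02 ± 0.19, adjusted p = 0.00327), shAdar2 (-1.66 ± 0.19, adjusted p = 8.1e-05) and shZfr (-1.48 ± 0.19, adjusted p = 0.000543), and all 3 calls held with any 1 sample left out. It fell in shAdar2 against shControl1 (-0.62 ± 0.19, adjusted p = 0.0215), a call lost without shControl1 replicate 1 (-0.32) or shAdar2 replicate 1 (-0.52). It was the 1 member higher in shControl2 than in shControl1 (1.03 ± 0.19, adjusted p = 0.00189).

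Polk, a translesion DNA polymerase, stood at 9.70 and 11.5 CPM in shAdar1, 30.4 and 26.7 in shAdar2, 37.7 and 38.3 in shZfr, 16.8 and 17.3 in shControl2, and 38.9 and 51.9 in shControl1. The shAdar1 samples lay below every other sample, those of shControl2 came next, and the shControl1 samples were the highest. Polk fell in shAdar1 to 0.234 of its shControl1 level (-2.10 ± 0.17, adjusted p = 0.000341), the lowest p of any member in that comparison. It fell against shControl2 too (-0.68 ± 0.17, adjusted p = 0.0118), a call lost without shControl2 replicate 2 (-0.70) or shAdar1 replicate 1 (-0.61). It rose in shZfr (1.15 ± 0.16, adjusted p = 0.000866) and shAdar2 (0.75 ± 0.16, adjusted p = 0.00305) against shControl2. In shAdar2 it fell against shControl1 (-0.67 ± 0.16, adjusted p = 0.00733), a call lost without shControl1 replicate 2 (-0.45), and it was lower in shControl2 than in shControl1 (-1.41 ± 0.16, adjusted p = 0.000185).

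Xpc, a damage sensor of nucleotide excision repair, stood at 18.4 and 21.2 CPM in shAdar1, 37.5 and 34.0 in shAdar2, 28.4 and 30.3 in shZfr, 16.8 and 19.8 in shControl2, and 17.9 and 16.3 in shControl1. The shAdar2 samples and then the shZfr samples lay above all others. Xpc rose in shAdar2 against shControl1 (1.06 ± 0.14, adjusted p = 0.000366) and shControl2 (0.97 ± 0.14, adjusted p = 0.000346). It rose in shZfr against shControl1 (0.78 ± 0.14, adjusted p = 0.0018) and shControl2 (0.68 ± 0.14, adjusted p = 0.00648), the second call being lost without shControl2 replicate 1 (0.56) or shZfr replicate 2 (0.62). The controls differed by 0.10 ± 0.14, which was not called, and shAdar1 was not called against either.

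Ercc5, an endonuclease of nucleotide excision repair, stood at 39.4 and 37.8 CPM in shAdar1, 56.8 and 59.7 in shAdar2, 56.9 and 55.7 in shZfr, 37.0 and 39.5 in shControl2, and 49.2 and 71.2 in shControl1. The 2 shControl1 samples spanned those of shAdar2 and shZfr. Ercc5 rose in shAdar2 (0.61 ± 0.16, adjusted p = 0.00759) and shZfr (0.56 ± 0.16, adjusted p = 0.0235) against shControl2, and fell in shAdar1 against shControl1 (-0.64 ± 0.16, adjusted p = 0.0234). The shControl2 samples had less of it than those of shControl1 (-0.66 ± 0.16, adjusted p = 0.00779). The shAdar2 call was lost without shControl2 replicate 1 (0.53), the shZfr call without any 1 of the 4 samples (0.50 to 0.60), the shAdar1 call without shControl1 replicate 2 (-0.35) or shAdar1 replicate 1 (-0.69) or shAdar1 replicate 2 (-0.61), and the call between the controls without shControl2 replicate 1 (-0.59).

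Ddb2, a subunit of the complex that recognises ultraviolet damage, stood at 6.88 and 6.78 CPM in shAdar1, 8.81 and 7.31 in shAdar2, 4.43 and 4.88 in shZfr, 3.86 and 4.16 in shControl2, and 6.46 and 7.86 in shControl1. The shControl2 samples were the lowest and those of shZfr came next. Ddb2 rose in shAdar2 (1.01 ± 0.20, adjusted p = 0.00198) and shAdar1 (0.77 ± 0.20, adjusted p = 0.0178) against shControl2, and fell in shZfr against shControl1 (-0.62 ± 0.20, adjusted p = 0.0309). In shControl2 it was lower than in shControl1 (-0.84 ± 0.20, adjusted p = 0.00885). The shAdar1 call was lost without any 1 of the 4 samples (0.68 to 0.78), the shZfr call without shControl1 replicate 2 (-0.47) or shZfr replicate 1 (-0.54) or shZfr replicate 2 (-0.69), and the call between the controls without shControl1 replicate 2 (-0.69) or shControl2 replicate 1 (-0.77) or shControl2 replicate 2 (-0.87). Ddb2 overlaps the gene Acp2, and Plk3 overlaps Tctex1d4, so that reads of either pair could have been split between them.

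Of the 5 genes of stress metabolism and mTOR control, 4 rose in shZfr against shControl2, 2 rose in shAdar2 against shControl1, and 1 fell in shAdar1 against shControl1. With the other control 1 rose in shAdar1, 2 rose and 1 fell in shAdar2, and 2 rose and 2 fell in shZfr. In shControl2 2 were lower than in shControl1. Sesn2, a leucine sensor that restrains mTORC1, stood at 16.6 and 17.4 CPM in shAdar1, 75.7 and 65.9 in shAdar2, 28.1 and 27.8 in shZfr, 14.9 and 12.8 in shControl2, and 37.7 and 48.8 in shControl1. The shAdar2 samples lay above all others, and the shAdar1 samples lay just above those of shControl2. Sesn2 rose in shAdar2 by 5.11-fold against shControl2 (2.35 ± 0.16, adjusted p = 6.52e-06) and by 1.64-fold against shControl1 (0.71 ± 0.15, adjusted p = 0.00365). It fell in shAdar1 against shControl1 (-1.34 ± 0.15, adjusted p = 0.000978). In shZfr it rose against shControl2 (1.01 ± 0.15, adjusted p = 0.00129) and fell against shControl1 (-0.63 ± 0.15, adjusted p = 0.00722), the fall being lost without shControl1 replicate 2 (-0.43) or shZfr replicate 1 (-0.62) or shZfr replicate 2 (-0.61). Its shControl2 level was below that of shControl1 (-1.64 ± 0.15, adjusted p = 7.68e-05).

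Ddit4 encodes REDD1, which inhibits mTORC1 after hypoxia and other stress. Its level was 58.7 and 50.1 CPM in shAdar1, 47.2 and 38.0 in shAdar2, 96.7 and 93.9 in shZfr, 57.7 and 50.7 in shControl2, and 42.2 and 44.2 in shControl1. The shZfr samples lay well above all others. Ddit4 rose in shZfr against shControl1 (1.14 ± 0.13, adjusted p = 0.000159) and shControl2 (0.81 ± 0.13, adjusted p = 0.00191), and both calls held with any 1 sample left out. In shAdar2 it fell against shControl2 (-0.34 ± 0.13, adjusted p = 0.049), a call lost without shControl2 replicate 1 (-0.27) or shControl2 replicate 2 (-0.45) or shAdar2 replicate 2 (-0.20).

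Dcxr, a reductase of dicarbonyls and L-xylulose, stood at 1.41 and 2.36 CPM in shAdar1, 7.10 and 7.53 in shAdar2, 1.73 and 1.76 in shZfr, 0.811 and 0.502 in shControl2, and 3.27 and 3.67 in shControl1. The shAdar2 samples were the highest and the shControl2 samples the lowest. Dcxr rose in shAdar2 by 11.1-fold against shControl2 (3.47 ± 0.35, adjusted p = 4.35e-05) and by 2.10-fold against shControl1 (1.07 ± 0.30, adjusted p = 0.0153), the second call being lost without shControl1 replicate 1 (0.99) or shControl1 replicate 2 (1.15). It rose in shAdar1 against shControl2 (1.53 ± 0.36, adjusted p = 0.0101), a call lost without shControl2 replicate 2 (1.18) or shAdar1 replicate 2 (1.11). In shZfr it rose against shControl2 (1.41 ± 0.37, adjusted p = 0.0173), a call lost without shControl2 replicate 2 (1.09) or shZfr replicate 1 (1.42) or shZfr replicate 2 (1.38), and fell against shControl1 (-0.99 ± 0.32, adjusted p = 0.029), a call lost without any 1 of the 4 samples (-0.90 to -1.07). Between the controls it was lower in shControl2 (-2.40 ± 0.35, adjusted p = 0.000623).

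Sesn1, the sestrin long known as a p53 target, lay between 25.5 and 36.6 CPM. Both shZfr samples, at 35.4 and 36.6 CPM, lay above every other sample. Sesn1 rose in shZfr against shControl2 (0.49 ± 0.12, adjusted p = 0.013) and shControl1 (0.42 ± 0.12, adjusted p = 0.0169). The call against shControl2 was lost without any 1 of the 4 samples (0.45 to 0.51) and that against shControl1 without shControl1 replicate 2 (0.36) or shZfr replicate 1 (0.45) or shZfr replicate 2 (0.40). Gdf15, a secreted stress cytokine, lay between 0.12 and 1.42 CPM and was called against no control.

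The calls against the 2 controls sorted the members into sets, each given beside its share of all genes tested. In shAdar1 none of the members was called higher than both controls (1.85% of all genes were), and Trp53inp1, Ccng1 and Polk were called lower than both (9.38% of members, 1.99% of all genes). Against the pooled controls these 3 differences were -1.275 for Trp53inp1, -1.01 for Ccng1 and -1.56 for Polk, none of them called (adjusted p = 0.0996, 0.0996 and 0.202, edgeR). Fas was called in opposite directions against the 2 controls, 13 members were called against shControl1 alone (40.6%, beside 9.66% of all genes) and 4 against shControl2 alone (12.5%, beside 26.6%). In shAdar2, Sesn2, Plk3, Tnfrsf10b, Xpc, Dcxr, Psrc1 and Trp53 were called higher than both controls (21.9%, beside 15.2% of all genes) and Trp53inp1, Ccng1, Rrm2b and Ckap2 lower than both (12.5%, beside 15.9%). Pmaip1, Ei24, Polk and Apaf1 were called in opposite directions in shAdar2 (12.5%, beside 2.64% of all genes). In shZfr, Sesn1, Trp53inp1, Ccng1, Xpc and Ddit4 were called higher than both controls (15.6%, beside 7.95% of all genes) and no member was called lower than both (7.85% of all genes were), although both shZfr samples of Rrm2b and Gdf15 lay below every control sample. Bax, Phlda3, Sesn2, Aen and Dcxr were called in opposite directions in shZfr (15.6%, beside 2.75% of all genes). The samples that ended single calls are named with each gene above.

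The comparisons of shAdar2 with shControl1 and of shZfr with shControl2 share no sample. Of the 32 members 10 were called in both (31.2%, beside 16.2% of all genes), 5 in the same direction (Sesn2, Psrc1, Dcxr and Xpc higher, Rrm2b lower) and 5 in opposite directions (Ccng1, Trp53inp1, Pmaip1, Polk and Apaf1, lower in shAdar2 and higher in shZfr). Over all genes 7.41% were called in both in the same direction and 8.82% in opposite directions, beside 15.6% of the members each. These directions rest on a different control for each group: against shControl2 Pmaip1, Polk and Apaf1 rose in shAdar2 as well as in shZfr. A further 12 members were called in shZfr alone and 5 in shAdar2 alone (14.5% and 30.1% of all genes). A call in 1 of them and none in the other does not show a difference, and the direct comparison of shAdar2 with shZfr called 13 members higher and 7 lower (31.8% and 28.6% of all genes, 60.5% in all). The lowest p-values of members belonged to Ccng1 (-2.95 ± 0.18, adjusted p = 2.59e-06) and Trp53inp1 (-3.19 ± 0.20, adjusted p = 2.99e-06), both lower in shAdar2, and Phlda3 was higher in shAdar2 (1.74 ± 0.17, adjusted p = 3.16e-05). Of the other genes with opposite calls, Pmaip1 was lower in shAdar2 than in shZfr (-0.84 ± 0.23, adjusted p = 0.00932), Polk was lower (-0.41 ± 0.16, adjusted p = 0.0474) with a call lost without shAdar2 replicate 2 (-0.33) or shZfr replicate 1 (-0.44) or shZfr replicate 2 (-0.41), and Apaf1 was not called (-0.19 ± 0.11, adjusted p = 0.149).

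**Figure D4:**
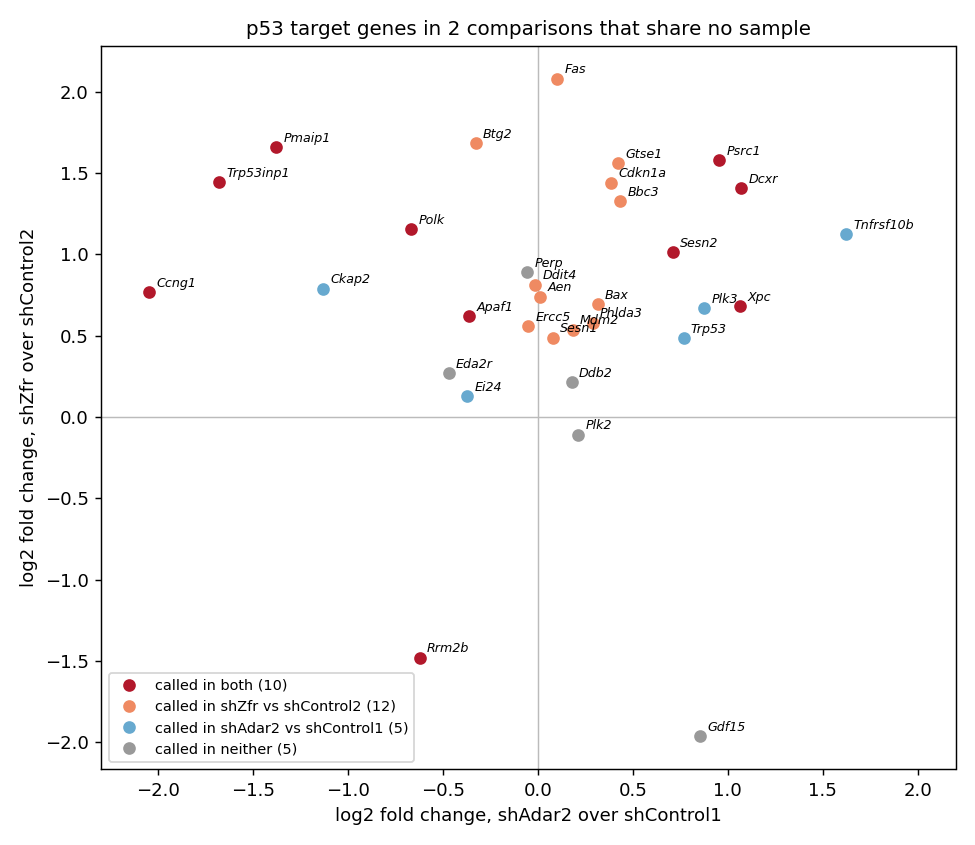
Log2 fold changes of the 32 p53 target genes in shAdar2 over shControl1 (horizontal) and in shZfr over shControl2 (vertical), coloured by the comparison in which each gene was called. Ccng1, Trp53inp1, Pmaip1, Polk and Apaf1 lie at the upper left, called lower in shAdar2 and higher in shZfr, and Rrm2b lies at the lower left.

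Compared with each other rather than with a control, shAdar2 had 19 members higher and 3 lower than shAdar1 (17% and 21% of all genes, 38% in all), with a median of 0.85 beside 0.01 over all genes. Cdkn1a (1.94 ± 0.16, adjusted p = 5.59e-05), Sesn2 (2.06 ± 0.15, adjusted p = 4.28e-05) and Tnfrsf10b (3.19 ± 0.39, adjusted p = 0.000378) were among those higher, and Ccng1 (-1.11 ± 0.17, adjusted p = 0.00111), Rrm2b (-0.64 ± 0.19, adjusted p = 0.0236) and Ckap2 (-1.15 ± 0.37, adjusted p = 0.0336) were the 3 lower. In shZfr 17 members were higher and 1, Bax (-0.65 ± 0.15, adjusted p = 0.00872), was lower than in shAdar1 (18.4% and 20.9% of all genes, 39.2% in all). The highest difference there was that of Trp53inp1 (2.75 ± 0.20, adjusted p = 2.89e-05). The 17 higher calls were 11 without shZfr replicate 2 and 12 to 14 without another sample, and the Bax call was lost without shAdar1 replicate 2 (-0.57) or shZfr replicate 2 (-0.52). In shAdar2 against shAdar1 the Rrm2b call was lost without shAdar1 replicate 1 (-0.47) or shAdar2 replicate 1 (-0.53) and the Ckap2 call without shAdar1 replicate 2 (-0.53) or shAdar2 replicate 1 (-0.68).

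Per length of transcript, as the authors' TPM, the members covered a wide range of levels. Over the 10 samples the lowest mean was that of Gdf15 at 1.58 TPM, followed by Fas at 4.20 TPM. The highest were Ccng1 at 199.8 TPM, Plk2 at 199 TPM and Ei24 at 186 TPM, and Cdkn1a averaged 115 TPM. In shZfr Ccng1 had 395 and 409 TPM, against 221 and 271 TPM in shControl2, and in shAdar2 it had 43.1 and 58.6 TPM, against 217 and 188 TPM in shControl1. Trp53inp1 had 316 and 324 TPM in shZfr, against 102 and 143 TPM in shControl2.

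Other lists were read beside the members. The shares of all genes called, given above with the genes of cell cycle arrest, apply to these lists too. Some counts lay near them: in shAdar2 against shControl2 8 of 25 regulators of p53 rose, beside 32.2% of all genes. Of 19 further p53 targets that were tested, 2 fell in shAdar1 and 8 rose and 2 fell in shAdar2, both against shControl1, and 6 rose in shZfr against shControl2. Against the other control 5 rose in shAdar1, 9 rose and 2 fell in shAdar2, and 4 rose and 4 fell in shZfr. In shControl2 1 was higher and 6 were lower than in shControl1. The RNA-binding zinc finger gene Zmat3 stood at 160.3 and 161 CPM in shAdar1, 255 and 236 in shAdar2, 642 and 635 in shZfr, 71.8 and 70.2 in shControl2, and 159 and 161 in shControl1, and rose in shZfr against shControl2 (3.17 ± 0.09, adjusted p = 4.08e-07) and shControl1 (2.00 ± 0.09, adjusted p = 4.74e-06). Both shAdar1 samples lay between the 2 shControl1 samples and above those of shControl2 (1.18 ± 0.09, adjusted p = 0.00016). Pidd1, the scaffold of a caspase-2 complex, stood at 2.41 and 3.69 CPM in shAdar1, 22.0 and 17.6 in shAdar2, 5.52 and 6.28 in shZfr, 2.48 and 2.10 in shControl2, and 8.57 and 12.2 in shControl1, and was lower in shControl2 than in shControl1 (-2.18 ± 0.27, adjusted p = 0.000289).

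Of 25 regulators of p53, 2 rose and 2 fell in shAdar1 and 2 rose and 8 fell in shAdar2, both against shControl1, while 4 rose and 2 fell in shZfr against shControl2. Atm, the kinase that signals DNA breaks to p53, rose in shAdar1 against shControl1 (0.54 ± 0.15, adjusted p = 0.0391) and fell in shZfr against shControl2 (-0.72 ± 0.15, adjusted p = 0.00653). Its level lay the other way beside the other control. Atm stood at 64.8 and 86.3 CPM in shAdar1, below both shControl2 samples (114 and 133). In shZfr it stood at 76.0 and 74.3 CPM, above both shControl1 samples (48.3 and 55.5). It was higher in shControl2 than in shControl1 (1.25 ± 0.15, adjusted p = 0.000241), as was Hipk2, a kinase of p53 (0.93 ± 0.13, adjusted p = 0.00058). Atr, the kinase of replication stress, fell in shAdar2 against shControl1 (-1.15 ± 0.15, adjusted p = 0.000354). Sirt1, a p53 deacetylase, rose in shZfr against shControl2 (0.55 ± 0.12, adjusted p = 0.00695), as did Trp53bp2, whose protein binds p53 (0.86 ± 0.13, adjusted p = 0.0011). Against the other control, 6 of the regulators rose and 6 fell in shAdar1, 8 rose and 12 fell in shAdar2, and 11 rose and 5 fell in shZfr. In shControl2 6 regulators were higher and 5 lower than in shControl1.

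Of 25 cell cycle genes that p53 represses through p21 and the DREAM complex, 7 rose in shAdar1 against shControl1, and 7 were higher in shControl2 than in shControl1. Against shControl2, 2 rose and 1 fell in shAdar1. In shAdar2 1 rose and 3 fell against shControl1 and 1 rose and 10 fell against shControl2, and in shZfr 2 rose and 1 fell against shControl2 but 19 rose and 1 fell against shControl1. Rrm2, the S phase subunit of ribonucleotide reductase, rose in shAdar1 (1.48 ± 0.31, adjusted p = 0.0128) and fell in shAdar2 (-0.93 ± 0.31, adjusted p = 0.0355) against shControl1. It stood at 26.2 and 56.7 CPM in shAdar1, 6.94 and 8.89 in shAdar2, 37.0 and 30.2 in shControl2, and 16.4 and 13.5 in shControl1. The 2 shAdar1 samples thus lay on either side of those of shControl2. Plk4, the kinase of centriole duplication, fell in shAdar2 against shControl1 (-1.38 ± 0.24, adjusted p = 0.00164). The summed level of the 25 genes was 226 and 485 CPM in shAdar1, 138 and 208 in shAdar2, 483 and 457 in shZfr, 333 and 337 in shControl2, and 223 and 203 in shControl1, with the shAdar1 samples far apart. The progenitor markers given with Ckap2 were split between those 2 samples in the same way, and their part was not tested.

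Of 15 targets of the stress factor ATF4, which shares Sesn2 and Ddit4 among its known targets with p53, 1 rose in shAdar1 and 3 rose and 3 fell in shAdar2, both against shControl1, and 1 rose and 6 fell in shZfr against shControl2. With the other control 1 rose and 1 fell in shAdar1, 5 rose and 2 fell in shAdar2, and 1 rose and 8 fell in shZfr. In shControl2 2 ATF4 targets were higher and 5 lower than in shControl1. Atf5 rose in shAdar2 against shControl1 (1.14 ± 0.21, adjusted p = 0.00182) and fell in shZfr against shControl2 (-1.02 ± 0.22, adjusted p = 0.00704). Asns, asparagine synthetase, fell in shAdar2 against shControl1 (-1.12 ± 0.24, adjusted p = 0.00488). It stood at 86.3 and 66.9 CPM in shAdar2 and 147 and 187 in shControl1. The shAdar2 samples overlapped those of shControl2 (76.7 and 66.8 CPM), so that the fall was seen beside shControl1 only. Of the 15 immediate early genes 2 fell in shAdar1 and 1 rose and 1 fell in shAdar2, both against shControl1, and 1 rose and 1 fell in shZfr against shControl2. In shAdar1 against shControl1 their median was -2.08, and 10 were lower at an unadjusted p under 0.05. Set against the other control, 10 rose in shAdar2 and 8 fell in shZfr. In shControl2 10 of the 15 were lower than in shControl1. The summed level of the 15 genes was 231 and 1087 CPM in shControl1, 1069 and 307 in shAdar2, and 304 and 213 in shAdar1. Counts and medians that involve shControl1 or shAdar2 thus rest on groups whose 2 samples were far apart.

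**Figure D5:**
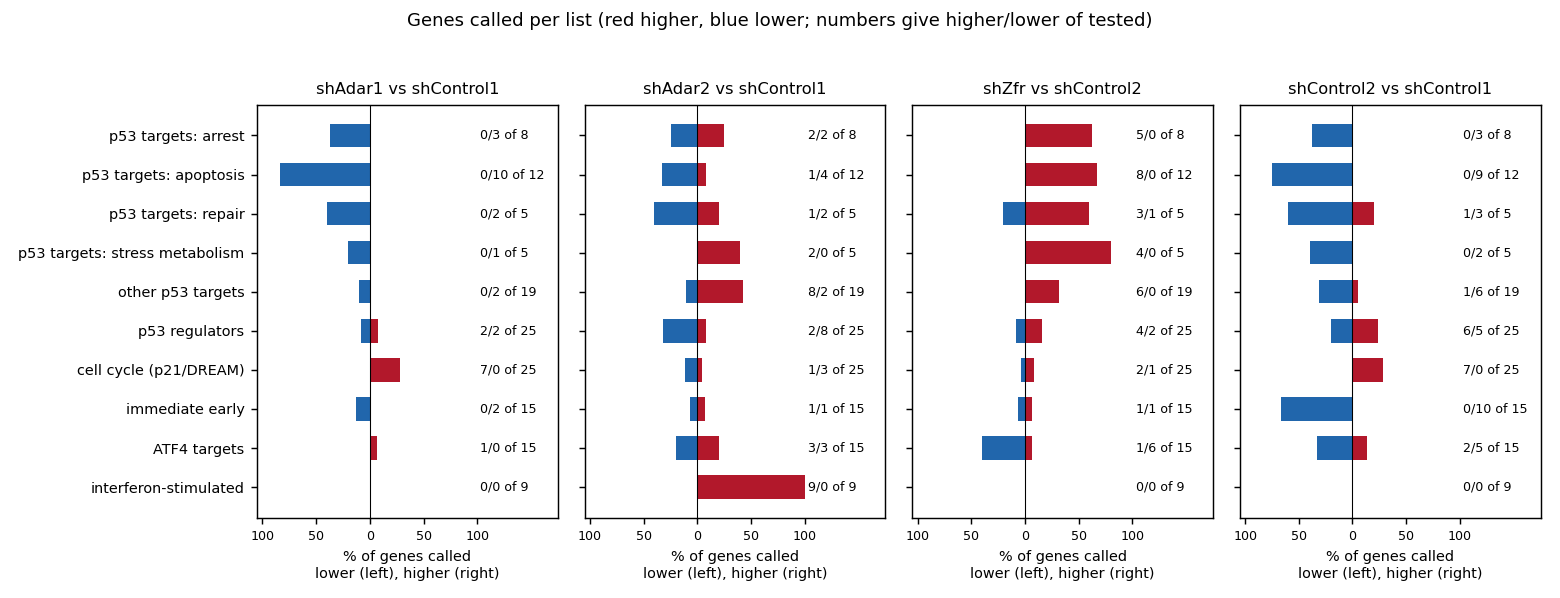
Share of each list's tested genes called higher (right, red) or lower (left, blue) in 4 comparisons, in percent. The counts of higher and lower calls and of genes tested stand beside each bar. Of all genes tested 9.33% were called higher and 6.9% lower in shAdar1 vs shControl1, and 23.2% each way in shAdar2 vs shControl1. In shZfr vs shControl2 these shares were 16.7% and 14.1%, and in shControl2 vs shControl1 19.9% and 23.2%. In shAdar1 vs shControl1 and in shControl2 vs shControl1 most apoptosis genes were called lower (10 and 9 of 12), in shZfr vs shControl2 8 of 12 were called higher, and all 9 interferon-stimulated genes were called higher in shAdar2 vs shControl1.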

How the data were processed

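The authors deposited, for each of 12 libraries, expected counts per gene, which are raw RSEM estimates, and TPM values (per the file headers). Their table of editing sites was not used here. The submitters' processing notes name, without roles, the mm9 build and RSEM 1.2.30, STAR 2.5.4b, Trim Galore 0.4.5, DESeq2 1.20.0 and SAMtools 1.4. The sources used here do not say whether reads were counted by strand. All 384 expected counts of the members were whole within 0.001.

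Expected counts were rounded, the 3 technical libraries of shAdar2 replicate 1 were summed, and genes were filtered with filterByExpr and normalised with TMM. The test was the quasi-likelihood test of edgeR 4.0.16 in R 4.3.3, with all 10 samples in 1 fit and Benjamini-Hochberg adjustment over 14785 genes. Standard errors were derived from the F statistics. Samples ranged from 15818942 to 82653835 counts. Replicate numbers were not used as pairs, since the deviations of same-numbered replicates correlated over 0.1 in only 1 of 10 pairs of groups (-0.12 to 0.281).

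The members, the other gene lists and the tests were chosen with earlier results of these data known, and nothing here is independent evidence of their direction. Genes described in full were Trp53, Cdkn1a and Mdm2, the 6 members of lowest p among those called in each of the 7 comparisons with a control, and any member called in opposite directions in 2 comparisons (26 members), and from each list up to 3 genes of lowest p where at least 3 were called. Alternatives were DESeq2 (1.42.0), its size factors, genes with at least 1 count, a replicate block, only the compared groups in a fit, pooled controls, each replicate left out, single technical libraries, and Rn45s left out. Summing the 2 shZfr samples was added after seeing the data.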

Additional observations from a re-analysis of the deposited data

How the results depend on the processing

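With each sample left out in turn, the members called higher and lower were 0 to 1 and 11 to 13 in shAdar1 vs shControl1, 4 to 9 and 4 to 8 in shAdar2 vs shControl1, 11 to 13 and 1 in shZfr vs shControl2, and 1 to 2 and 14 to 18 in shControl2 vs shControl1. They were 1 to 5 and 3 to 4 in shAdar1 vs shControl2, 18 to 22 and 4 to 5 in shAdar2 vs shControl2, and 4 to 6 and 3 to 6 in shZfr vs shControl1. They were 15 to 21 and 2 to 4 in shAdar2 vs shAdar1, 11 to 14 and 0 to 1 in shZfr vs shAdar1, and 10 to 15 and 5 to 7 in shAdar2 vs shZfr. These fits leave 1 sample in a group, which is assumed to vary like the others. Pooling both controls took the place of either one: then no member was called lower in shAdar1, 4 were called lower in shAdar2 and 5 higher, and in shZfr 5 were called higher and 0 lower, and shAdar1 had 0 higher. Directions turned with pooled controls for Ei24 in shAdar2 vs shControl1 (0.072), for Bax (-0.44), Phlda3 (-0.77), Sesn2 (-0.032), Aen (-0.20), Fas (-0.027) and Dcxr (-0.26) in shZfr vs shControl2, for Fas (-0.63) and Dcxr (-0.14) in shAdar1 vs shControl2, and for Pmaip1 (-0.68), Polk (-0.13) and Apaf1 (-0.022) in shAdar2 vs shControl2, since the controls themselves differ on these genes. With only the compared groups in the fit, the lower calls were 4 in shAdar2 vs shControl1, 2 in shZfr vs shControl2, 11 in shZfr vs shControl1, 1 in shAdar2 vs shAdar1 and 3 in shZfr vs shAdar1, and the higher calls 3 in shControl2 vs shControl1. With the shZfr samples summed, 13 were higher in shZfr vs shControl2, 4 lower in shZfr vs shControl1 and 0 lower in shZfr vs shAdar1. DESeq2 gave 1 higher in shAdar1 vs shControl1 and 2 in shControl2 vs shControl1, and its size factors 2 in the second. The replicate block used replicate numbers that the labels do not describe as pairs. It gave 1 higher in shAdar1 vs shControl1, 2 higher in shControl2 vs shControl1 and 5 lower in shAdar2 vs shAdar1. It also ended 1 of the 180 calls of single members. For the other moves the cause was not tested. Only calls of single members made in the fit described were followed: without Rn45s or with DESeq2 size factors all 180 held, with DESeq2 178, with at least 1 count 176, with only the compared groups 161 and with shZfr summed 145. Fewest held with pooled controls, which bear only on calls of a knockdown against a control. There 28 calls held, 61 kept their direction but were no longer called, and 12 turned. Many calls were also lost with 1 sample left out, as given with the genes above. Gdf15, Fas and Dcxr rest on few counts in some samples, the lowest being 2, 6 and 11. They were called in 1, 6 and 8 of the 10 comparisons, and the part of depth in these calls was not tested.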
